A study of Mus musculus with 6 samples.

Results

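The glutathione and antioxidant genes measured here are the genes whose symbols begin with Gsta, Gstk, Gstm, Gsto, Gstp, Gstt, Gstz, Mgst, Gpx or Prdx followed by a digit, together with Gclc, Gclm, Gss, Gsr, Nqo1, Txnrd1, Hmox1, Sod1, Sod2, Sod3, Cat and Nfe2l2. The rule used symbols and no measured value. It took 60 symbols of the RefSeq gene table, of which 51 had at least 1 named probe on the array, out of 20145 genes named there. Of these 51 genes, 47 were tested, and Gpx5, Gpx6, Gsta1 and Gstt4 were not, because none of the 6 arrays showed their probes well above background. The other 9 symbols, Prdx6b and 8 pseudogenes, had no named probe and were not analysed here.

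Whole uteri were taken on gestation day (GD) 3.5, after natural mating at 8 to 10 weeks of age, from 3 mice of the Sox17 f/f and 3 of the Sox17 ed/ed genotype, and RNA from each uterus, with the embryos removed, was hybridized to a 1-colour Agilent array. Both genotypes carry floxed alleles of Sox17, a transcription factor of the uterine epithelium. Sox17 ed/ed mice, labelled LtfiCre/+ Sox17 f/f, also carry the iCre recombinase at 1 copy of the Ltf locus, which is active in the uterine epithelium from puberty, and Sox17 f/f mice, whose genotype is also labelled WT, have no recombinase. The effect of the Ltf allele itself cannot be told apart from that of Sox17 deletion. The comparison asks how the transcripts of these enzymes differ in a uterus whose epithelium lacks SOX17 at the time when the uterus becomes receptive to the embryo.

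Glutathione is a small peptide of glutamate, cysteine and glycine that cells hold at high concentration as a reductant. Glutamate-cysteine ligase and glutathione synthetase make it, glutathione peroxidases spend it on peroxides, glutathione reductase restores it, and glutathione S-transferases attach it to electrophiles, which include lipid oxidation products, drugs and steroid metabolites. Peroxiredoxins, catalase and superoxide dismutases remove reactive oxygen species by other routes. Many of these genes are targets of the transcription factor NFE2L2 (NRF2), which KEAP1 holds at low levels until electrophiles or oxidants modify it.

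Between 56.8% and 65.7% of the spots other than controls were well above background on each array, and 0 were saturated. The 6 arrays shared 1 slide and 1 scan, with Sox17 f/f in line 1 and Sox17 ed/ed in line 2, so the line and the genotype cannot be told apart. The signal of Sox17 itself was 12.17 ± 0.09 (SD, n = 3 arrays, log2 normalized signal) with the floxed alleles alone and 9.72 ± 0.11 (SD, n = 3) after their deletion, a difference of -2.45. All 10 endometrial stroma, all 8 smooth muscle and all 12 uterine epithelium markers were measured, which is what a whole uterus should hold. Of the glandular epithelium markers, leaving out Sox17, which was deleted by design and is also made in the luminal epithelium, 7 of 7 were lower in Sox17 ed/ed uteri, and their summed linear signal was between 34200 and 54900 in Sox17 f/f but between 133 and 205 in Sox17 ed/ed uteri. Prss29, Lif and Ttr among them were well above background on no Sox17 ed/ed array. These genes were kept for testing only through the Sox17 f/f arrays. The summed signal of the uterine epithelium markers was 55800 to 58900 and 55900 to 68900, with 4 markers higher and 3 lower. Of the endothelium markers 6 of 8 were lower. Stratified squamous epithelium markers were higher in 2 of 6 tested, Sprr2f (difference 5.97) and Krt5, which was at least 5.25-fold higher. The summed signal of this list was 4920 to 5850 in Sox17 f/f against 126000 to 146000 in Sox17 ed/ed uteri, most of the latter from Sprr2f. Krt5 was kept for testing only through the Sox17 ed/ed arrays. Its limma adjusted p of 0.0446 belongs to the measured difference of 2.78 (standard error 0.72) and not to the bound. The other 4 tested, Trp63 (difference -0.12), Krt14, Krt13 and Lor, were not called. For Trp63, whose mean signal here was 11.38 in Sox17 f/f and 11.26 in Sox17 ed/ed uteri, the study's quantitative PCR differs. It found more Trp63 mRNA in Sox17 ed/ed than in Sox17 f/f uteri, with only sporadic TRP63-positive cells in the epithelium of young Sox17 ed/ed mice. The reason for this disagreement was not tested. The study counts Sprr2f among estrogen-responsive and uterine epithelial genes. Among further lists, the summed signal was higher on every Sox17 ed/ed array for mesothelium (17200 to 18500 against 31200 to 36700). The same was true of cell cycle (19600 to 23800 against 27300 to 30300) and embryo (616 to 664 against 823 to 875). The 6 mesothelium markers held 3 higher and 1 lower, and most of the rise in their sum came from Krt19, also a uterine epithelium marker. The lower one, Lrrn4, was kept for testing only through the Sox17 f/f arrays. Only 1 of 9 cell cycle markers tested was called, as higher. For embryo, 4 of 6 markers were below background on all arrays, Tfap2c was higher (difference 1.29) and Nanog was not called. The summed signal was lower on every Sox17 ed/ed array for endothelium (19500 to 23300 against 13600 to 15300) and stroma (495000 to 513000 against 434000 to 492000). So it was for smooth muscle (444000 to 486000 against 342000 to 414000) and for ciliated cell and oviduct (1770 to 2750 against 567 to 667). Also lower were eosinophil and mast cell (2250 to 3070 against 1570 to 1830), adipocyte (328 to 588 against 214 to 322) and exocrine pancreas (302 to 323 against 199 to 241). A sum is led by the brightest genes of a list. The stroma list held 1 marker called higher and 1 called lower of 10, and the smooth muscle list 1 lower of 8. Ciliated cell and oviduct markers had 1 higher and 2 lower of 6, eosinophil and mast cell markers 1 higher and 1 lower of 8 tested. For adipocyte 1 of 4 tested and for exocrine pancreas 2 of 3 tested were called, all lower. The part of these cell types in the results that follow was not tested. In whole tissue, fewer cells of a type and less RNA per cell cannot be told apart by these arrays. For glands, the study counted fewer when Sox17 was deleted in all uterine compartments than in either genotype measured here. After deletion in the epithelium from puberty, it describes glands as present but altered in function.

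Of the 47 members tested, 12 rose and 7 fell in Sox17 ed/ed uteri at a limma p adjusted over all 14847 genes tested of under 0.05. The 19 that changed are 40.4% of the members tested, against a background of 18.9% of all genes tested. The 12 that rose are 25.5%, against 8.84%, and the 7 that fell are 14.9%, against 10.1%. At the thresholds of the study's methods, an unadjusted p under 0.01 and a fold of at least 1.4, 14 members changed (29.8%, background 12.5%), 9 higher (19.1%, background 6.04%) and 5 lower (10.6%, background 6.47%). The median difference was 0.12 on the log2 scale over the members and 0.00 over all genes tested, and the median size of the difference, whatever its sign, was 0.22 and 0.17. The arrays of the genotypes did not overlap for 23 members (48.9%, background 40.6%), all 19 that changed among them.

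The larger changes lay in single members or pairs of a family. In the plot by role, 1 member lay far above or far below its relatives among the glutathione peroxidases (Gpx2) and the peroxiredoxins (Prdx6). The same held for the pi (Gstp3), alpha (Gsta2) and theta (Gstt3) class transferases, and for a pair in the mu class (Gstm6 and Gstm7). Of the 28 members that were not called, 17 had a higher and 11 a lower mean in Sox17 ed/ed uteri, with differences of -0.23 to 0.46. For 22 of them the 95% interval of the difference lay within 0.49 on the log2 scale, a 1.4-fold change, on either side of 0.

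**Figure D1:**
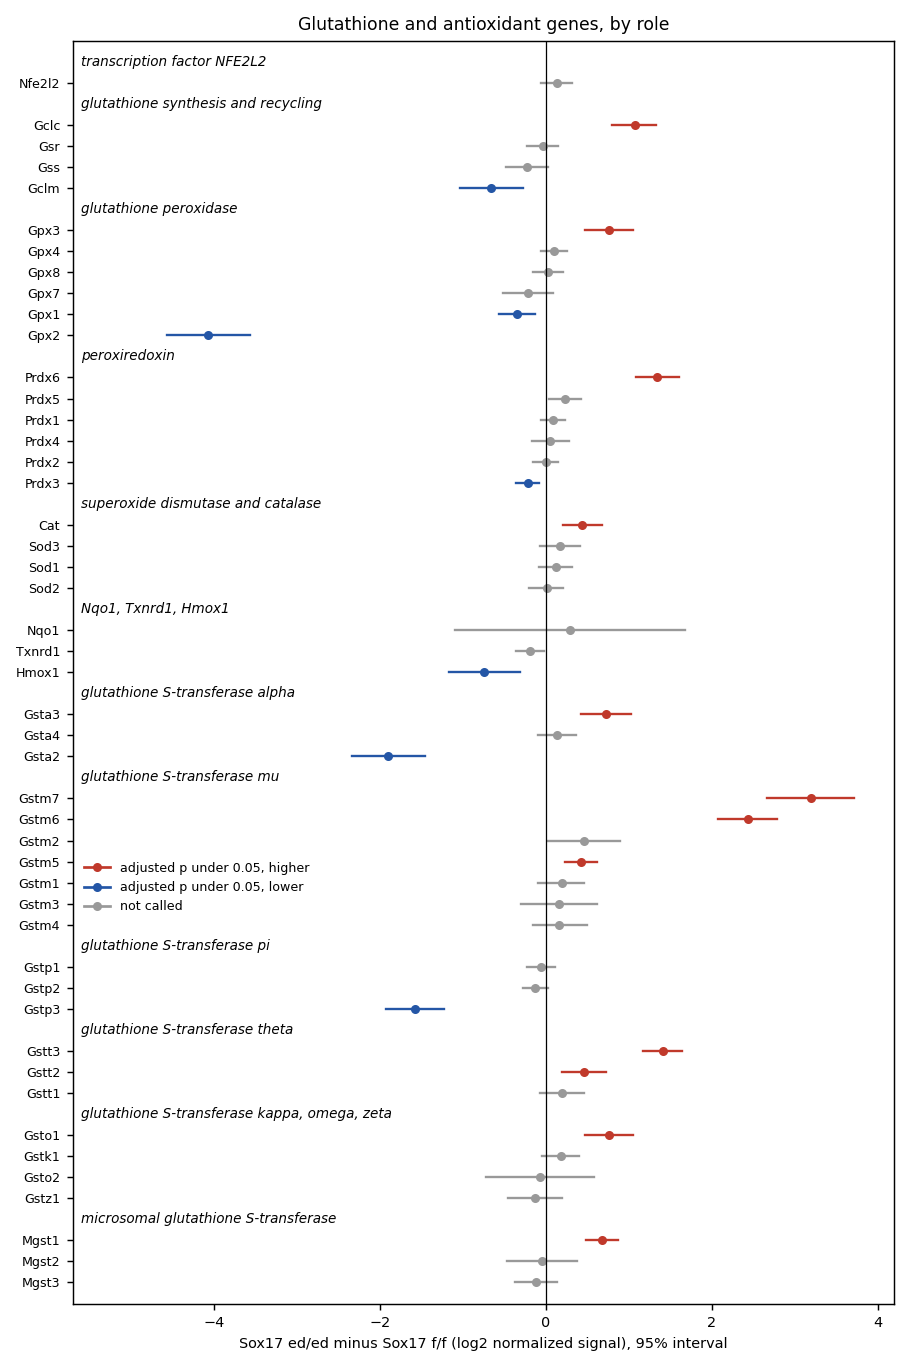
Each point is the difference between the mean log2 normalized signals of 3 Sox17 ed/ed and 3 Sox17 f/f arrays for 1 member, grouped by role, and the bar is its 95% interval from limma. Red members rose and blue members fell at an adjusted p under 0.05, and grey members were not called; Gpx2 lies lowest at -4.07 and Gstm7 highest at 3.19.

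Nfe2l2, which encodes the regulator of many of the other members, was not called. Its log2 normalized signal was 12.10, 12.10 and 12.16 on the Sox17 f/f arrays and 12.34, 12.13 and 12.28 on the Sox17 ed/ed arrays. The groups overlapped at their edges, and the difference of 0.13 had a 95% interval of -0.06 to 0.32 (limma adjusted p = 0.287). Its inhibitor Keap1 and its competitor for DNA, Bach1, were not called either, with differences of -0.19 (adjusted p = 0.364) and -0.15 (adjusted p = 0.264).

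Glutathione synthesis begins with glutamate-cysteine ligase, and its subunits moved in opposite directions. Gclc, the catalytic subunit, rose: its signal was 10.62, 10.76 and 10.52 on the Sox17 f/f arrays and 11.88, 11.62 and 11.59 on the Sox17 ed/ed arrays. All 3 Sox17 ed/ed arrays were clearly the higher, by 1.07 on the log2 scale (standard error 0.11, limma adjusted p = 0.00141), or 2.09-fold. Gclm, the modifier subunit that makes the ligase more efficient, fell from 7.13, 6.95 and 7.05 to 6.71, 6.35 and 6.09. The Sox17 ed/ed arrays were the lower without overlap and spread more widely, and the difference was -0.66 (standard error 0.16, limma adjusted p = 0.0356). The Gclm call held without Sox17 ed/ed replicate 1 and was lost when any other array was left out (differences of -0.51 to -0.70, adjusted p of 0.0699 to 0.112). Gss, which adds glycine in the final step, differed by -0.23 (adjusted p = 0.194) and Gsr, which reduces oxidized glutathione, by -0.04 (adjusted p = 0.772), and neither was called.

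Among the glutathione peroxidases 2 fell, 1 rose and 3 were not called. Gpx2, the form known from the epithelium of the gut and other linings, fell the most of all members. Its signal was 13.91, 14.11 and 13.30 on the Sox17 f/f arrays and 9.76, 9.75 and 9.60 on the Sox17 ed/ed arrays. Sox17 f/f replicate 3 was the lowest of its group and still far above every Sox17 ed/ed array, on which the values were close together. The difference was -4.07 (standard error 0.21, limma adjusted p = 8.77e-05), or 16.8-fold, and Gpx2 remained well above background on all 3 Sox17 ed/ed arrays. The fall lay in the same direction as that of the 7 glandular epithelium markers, whose median difference was -7.02. Prss29, Lif and Ttr among these were kept for testing only through the Sox17 f/f arrays. The part of the 7 markers in the fall of Gpx2 was not tested.

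The promoter of Gpx2 is shown because this gene fell the most. In this and the following promoter windows, which run from 250 bases before to 50 bases after the annotated gene start, RefSeq sequence of the GRCm38.p6 build was searched on both strands for the core of the antioxidant response element bound by NFE2L2 (TGACNNNGC), the core motif of SOX factors (AACAAT) and the AP-1 site (TGACTCA). Matches are in capitals, and the Gpx2 window, chr12:76795505-76795804 on the minus strand, holds none of them.
Gpx2: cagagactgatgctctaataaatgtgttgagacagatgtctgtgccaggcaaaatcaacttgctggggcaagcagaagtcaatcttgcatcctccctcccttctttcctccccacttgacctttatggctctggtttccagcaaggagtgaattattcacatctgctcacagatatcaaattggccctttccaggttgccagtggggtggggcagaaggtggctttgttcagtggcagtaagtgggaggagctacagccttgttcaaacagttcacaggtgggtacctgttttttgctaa
The absence of a match says only that these letters are not in this window.

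The other glutathione peroxidases differed by less. Gpx3, the secreted form of plasma and extracellular fluid, rose from 11.28, 11.47 and 11.20 on the Sox17 f/f arrays to 11.88, 12.12 and 12.24 on the Sox17 ed/ed arrays. The groups did not overlap, and the difference was 0.76 (standard error 0.12, limma adjusted p = 0.0077). Gpx1, the main cytosolic form, fell by 0.35 on the log2 scale (adjusted p = 0.045), under 1.4-fold, and held its call only without Sox17 ed/ed replicate 3 among the fits that left out an array (adjusted p of 0.0807 to 0.125 without any other array). Gpx4, which reduces peroxides in membrane phospholipids, differed by 0.10 and Gpx8, a form of the endoplasmic reticulum, by 0.03, and neither was called. Gpx7, the other form of that compartment, differed by -0.22 and was not called.

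Of the peroxiredoxins, which reduce peroxides through a cysteine of their own, 1 rose, 1 fell and 4 were not called. Prdx6, whose product also reduces phospholipid peroxides and has phospholipase activity, rose from 14.03, 14.12 and 14.11 on the Sox17 f/f arrays to 15.64, 15.26 and 15.38 on the Sox17 ed/ed arrays. The Sox17 f/f values lay close together and every Sox17 ed/ed value far above them, a difference of 1.34 (standard error 0.11, limma adjusted p = 0.000519) or 2.53-fold. All 4 Prdx6 probes rose, by 0.82 to 1.4, and the dimmest probe rose least. Prdx6b, a closely related gene copy, could share signal with these probes. Prdx3, the mitochondrial form, fell by 0.22 (adjusted p = 0.0454), and this call was lost when any 1 of the 6 arrays was left out (adjusted p of 0.0913 to 0.145). Prdx5 differed by 0.23 (adjusted p = 0.0886), with arrays that did not overlap, and the cytosolic forms Prdx1 and Prdx2 and the form of the endoplasmic reticulum, Prdx4, by 0.09, 0.00 and 0.05.

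The superoxide dismutases were not called. Sod1, the cytosolic enzyme, differed by 0.12, Sod2, the mitochondrial one, by 0.01 and Sod3, the extracellular one, by 0.17. The 95% intervals of these differences all lay between -0.20 and 0.41. Catalase, which breaks down hydrogen peroxide in peroxisomes, rose by its brighter probe and not by the other. The brighter Cat probe gave 9.24, 9.30 and 9.33 on the Sox17 f/f and 9.57, 9.90 and 9.73 on the Sox17 ed/ed arrays, a difference of 0.44 (standard error 0.10, limma adjusted p = 0.0256). The dimmer Cat probe gave 6.40, 6.48 and 6.98 against 6.87, 6.47 and 6.92, groups that overlapped, with a difference of 0.13. With the mean of both probes the difference was 0.29 and was not called (adjusted p = 0.11). The call of the brighter probe was lost without Sox17 f/f replicate 1 or 2 or Sox17 ed/ed replicate 2 or 3 (adjusted p of 0.0521 to 0.0904).

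Nqo1, Txnrd1 and Hmox1 are known NFE2L2 targets, and none of them was called higher. Hmox1, which breaks down heme, gave 10.54, 11.14 and 10.51 on the Sox17 f/f arrays and 10.06, 9.95 and 9.97 on the Sox17 ed/ed arrays, and fell by 0.74 on the log2 scale (standard error 0.18, limma adjusted p = 0.0339). The Sox17 ed/ed arrays lay close together below all Sox17 f/f arrays, of which replicate 2 stood out as high. The dimmer Hmox1 probe gave 6.58, 7.40 and 6.75 against 6.49, 6.18 and 6.36, with replicate 2 again the highest, and its difference of -0.57 was not called (adjusted p = 0.135 over all probes). With the mean of both probes the difference was -0.65 and was not called (adjusted p = 0.069). The call of the brighter probe held without Sox17 f/f replicate 2 or 3 and was lost without any of the other arrays (adjusted p of 0.056 to 0.0957). Of 7 erythrocyte markers tested 0 were called, with Alas2 the lowest at -1.03 (adjusted p = 0.0734) and the others at -0.23 to 0.23, and their summed linear signal was 34100 to 60800 in Sox17 f/f and 39900 to 56000 in Sox17 ed/ed uteri. Of the macrophage and leukocyte markers, 1 was higher and 2 were lower of 9, and the part of either list in the fall of Hmox1 was not tested.

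Nqo1, a quinone reductase, had the largest standard error of the members. Its signal was 7.15, 7.37 and 7.44 on the Sox17 f/f arrays and 6.78, 7.04 and 9.01 on the Sox17 ed/ed arrays. Sox17 ed/ed replicate 3 alone lay above the Sox17 f/f arrays, and the other Sox17 ed/ed arrays lay below all of them. The difference of 0.29 (standard error 0.57, limma adjusted p = 0.766) became -0.41 without that array (adjusted p = 0.116). Txnrd1, the cytosolic thioredoxin reductase, differed by -0.19 (adjusted p = 0.118) and was not called.

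The mu class of glutathione S-transferases held the largest rises. Gstm7 gave 8.91, 8.92 and 9.46 on the Sox17 f/f arrays and 12.41, 11.92 and 12.52 on the Sox17 ed/ed arrays. Even the highest Sox17 f/f array was far below the lowest Sox17 ed/ed array, and the difference was 3.19 (standard error 0.21, limma adjusted p = 0.000265), or 9.13-fold. Gstm6 gave 7.30, 6.93 and 7.38 against 9.73, 9.72 and 9.44, a difference of 2.43 (standard error 0.15, limma adjusted p = 0.000176), or 5.38-fold. The second Gstm7 probe rose by 3.11 and the 3 Gstm6 probes by 2.15 to 2.45. Gstm5 rose by less, by 0.42 (limma adjusted p = 0.0145), and lost its call without Sox17 f/f replicate 1 (adjusted p = 0.0559).

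The promoter windows of Gstm7 are of interest because this gene rose the most of the members. RefSeq gives 2 overlapping windows for it on the minus strand, of which the one nearer to the gene, chr3:107931565-107931864, is shown. It holds the SOX core 234 bases and the antioxidant response element core 129 bases before the gene start, and the other window holds the same SOX core.
Gstm7: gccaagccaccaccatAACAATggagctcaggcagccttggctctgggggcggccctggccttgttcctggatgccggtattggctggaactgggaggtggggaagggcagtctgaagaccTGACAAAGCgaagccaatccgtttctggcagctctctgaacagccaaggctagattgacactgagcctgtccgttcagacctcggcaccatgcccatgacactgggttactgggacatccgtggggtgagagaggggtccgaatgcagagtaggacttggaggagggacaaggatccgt
The study's SOX17 binding data were not analysed here.

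The remaining mu class genes were not called. Gstm2 differed by 0.46 (95% interval 0.02 to 0.89, limma adjusted p = 0.13), Gstm1 by 0.19, Gstm3 by 0.16 and Gstm4 by 0.16. On the Sox17 f/f arrays, replicate 3 was the highest in all of these: for Gstm2 the values were 15.12, 15.20 and 15.71 there and 15.97, 15.62 and 15.80 on the Sox17 ed/ed arrays. Without Sox17 f/f replicate 3 the Gstm2 difference was 0.64 and it was called (adjusted p = 0.0217). The brighter Gstm4 probe gave 11.15, 11.23 and 11.59 against 11.59, 11.36 and 11.51, with overlapping groups. The dimmer Gstm4 probe gave 7.89, 7.95 and 8.21 against 8.59, 8.41 and 8.64, a difference of 0.53 that was called (adjusted p = 0.0248 over all probes), so the Gstm4 probes differ in their call. Mu class genes are similar in sequence, and how far a probe of one takes up the transcript of another was not tested.

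The genes of the mu class lie next to each other on chromosome 3, in the order Gstm5, Gstm7, Gstm6, Gstm3, Gstm2, Gstm1 and Gstm4 in the gene table, with at most 1 other entry of that table between neighbours. The genes with the largest rises, Gstm7 and Gstm6, are direct neighbours. The next mu class gene on one side, Gstm5, rose by 0.42 and the next on the other side, Gstm3, differed by 0.16 and was not called. The 95% intervals of Gstm7 (2.67 to 3.71) and Gstm6 (2.07 to 2.78) lay above those of all the other mu class genes, none of which reached beyond 0.89, but no test was made of the difference between genes. The theta class genes Gstt3, Gstt1, Gstt4 and Gstt2 are also adjacent in the gene table, on chromosome 10, and the pi class genes Gstp1, Gstp2 and Gstp3 on chromosome 19.

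**Figure D2:**
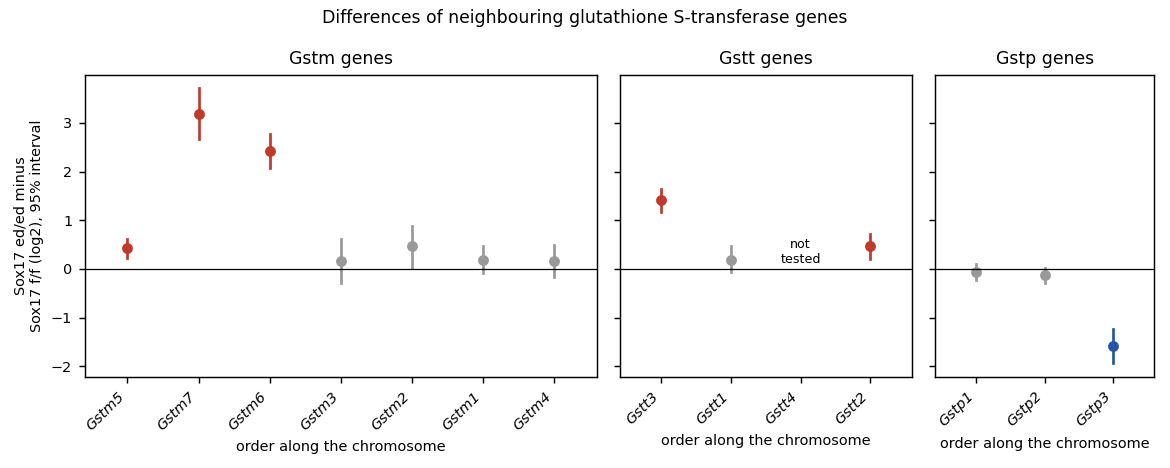
Differences, Sox17 ed/ed minus Sox17 f/f (log2 scale, 3 arrays a group, with 95% intervals from limma) of the mu, theta and pi class genes in their order along the chromosome, evenly spaced and not to genomic scale. Red genes rose, blue genes fell and grey genes were not called, and in each class 1 or 2 genes, Gstm7 at 3.19 with Gstm6 at 2.43, Gstt3 at 1.41 and Gstp3, drawn at its measured value although only a bound of 2.4-fold can be given, lie apart from their neighbours.

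In the theta class Gstt3 rose from 10.73, 10.58 and 10.89 on the Sox17 f/f arrays to 12.14, 12.07 and 12.20 on the Sox17 ed/ed arrays. The values of each genotype lay close together and far from those of the other, and the difference was 1.41 (standard error 0.10, limma adjusted p = 0.000277), or 2.65-fold. Gstt2 rose by 0.46 (limma adjusted p = 0.0308), which held only without Sox17 f/f replicate 3 among the fits that left out an array (adjusted p of 0.0615 to 0.0871 without any other array). Gstt1, which lies next to Gstt3, differed by 0.19 (adjusted p = 0.271) and was not called. In the pi class Gstp3 fell: its signal was 5.57, 5.58 and 5.31 on the Sox17 f/f arrays and 3.88, 4.16 and 3.67 on the Sox17 ed/ed arrays, of which none showed it well above background. Gstp3 was therefore at least 2.4-fold lower in Sox17 ed/ed uteri, counted against the lowest signal well above background on each array. Its limma adjusted p of 0.000898 belongs to the measured difference of -1.58 and not to this bound. Gstp3 was kept for testing only through the Sox17 f/f arrays. Under normexp correction with an offset of 50, which is added to every signal and so shrinks the folds of dim probes, the Gstp3 difference was -0.41, or 1.33-fold (adjusted p = 0.00554). Gstp1 and Gstp2, near-identical copies that probes may not tell apart, differed by -0.06 and -0.13 and were not called.

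In the alpha class 1 gene fell and 1 rose. Gsta2 gave 7.62, 7.0 and 7.62 on the Sox17 f/f arrays and 5.45, 5.44 and 5.65 on the Sox17 ed/ed arrays, a difference of -1.90 (standard error 0.18, limma adjusted p = 0.0011), or 3.73-fold lower. Under the normexp correction it was -1.12, or 2.17-fold (adjusted p = 7.48e-05). The groups were far apart, with Sox17 f/f replicate 2 the lowest of its group. Gsta1, a close copy of Gsta2 on the same chromosome, had a probe that no array showed well above background. Gsta3, an alpha class enzyme with steroid isomerase activity in some species, rose by its brighter probe from 6.96, 6.80 and 7.22 to 7.78, 7.79 and 7.58, without overlap (difference 0.72, standard error 0.12, limma adjusted p = 0.0112). The dimmer Gsta3 probe gave 6.22, 6.02 and 6.43 against 6.98, 6.76 and 6.51, also without overlap, and its difference of 0.53 was not called (adjusted p = 0.0675 over all probes). Gsta4, which handles the lipid peroxidation product hydroxynonenal, differed by 0.13 and was not called.

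In the omega class Gsto1, whose product has thiol transferase and dehydroascorbate reductase activity, rose from 15.55, 15.91 and 15.60 to 16.49, 16.31 and 16.53. Every Sox17 ed/ed array was above every Sox17 f/f array, and the difference was 0.76 (standard error 0.12, limma adjusted p = 0.00776). Gsto2 differed by -0.07 with a wide 95% interval of -0.72 to 0.58, and Gstk1 of the kappa class and Gstz1 of the zeta class differed by 0.18 and -0.13. None of these was called. Of the membrane-bound microsomal transferases, Mgst1 rose from 12.11, 11.99 and 12.23 to 12.80, 12.81 and 12.74, a difference of 0.68 (standard error 0.08, limma adjusted p = 0.00269), and its other probe rose by 0.67. Mgst2 differed by -0.05 and Mgst3 by -0.12, and neither was called.

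**Figure D3:**
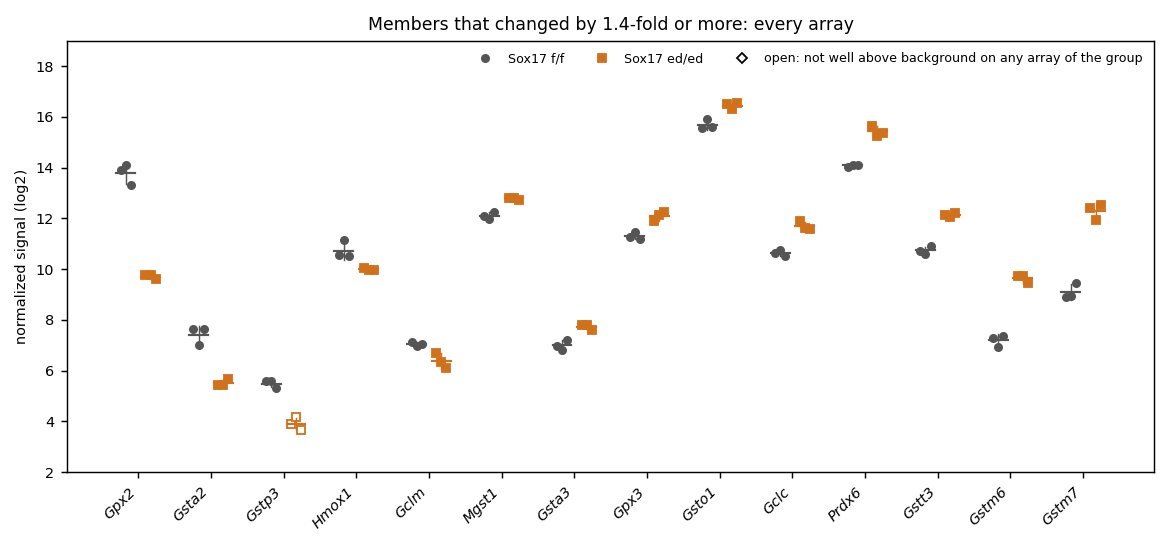
Log2 normalized signal on each of the 3 Sox17 f/f (circles) and 3 Sox17 ed/ed (squares) arrays for the 14 members called at an adjusted p under 0.05 with a fold of at least 1.4, with the group mean (horizontal line) and SD (vertical line), ordered by the difference. Open symbols mark a group in which no array was well above background (Gstp3 in Sox17 ed/ed), and the arrays of the genotypes do not overlap for any of the 14. Signals of different genes come from different probes and are not comparable.

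Promoter windows were found in RefSeq for 44 of the 51 members (58 windows). Gclc, Gsr, Gsta4, Gstt2, Hmox1, Prdx6 and Sod3 had no window in the table used here and were not searched. The core of the antioxidant response element was found in those of 9 members (20.5% of the 44), against 14% of all 27025 genes with a window, and in 9 of the 58 member windows against 12.4% of all 32851 windows. The 9 windows are shown because this element is the site through which NFE2L2 is known to act. Each is printed with 10 bases on either side of the core, which is in capitals and, where the match is on the opposite strand, reads GCNNNGTCA.
Gsta3 (chr1:21240454-21240482, plus strand): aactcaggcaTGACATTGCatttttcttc
Gstm5 (chr3:107895802-107895830, plus strand): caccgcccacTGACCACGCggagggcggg
Gstm7 (chr3:107931725-107931753, minus strand): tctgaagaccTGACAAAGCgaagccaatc
Mgst1 (chr6:138140461-138140489, plus strand): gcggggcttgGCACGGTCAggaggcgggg
Gclm (chr3:122245413-122245441, plus strand): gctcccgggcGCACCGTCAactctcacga
Nfe2l2 (chr2:75704885-75704913, minus strand): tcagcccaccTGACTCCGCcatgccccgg
Prdx1 (chr4:116685456-116685484, plus strand): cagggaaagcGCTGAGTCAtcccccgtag
Txnrd1 (chr10:82859104-82859132, plus strand): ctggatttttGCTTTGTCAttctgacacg
Sod1 (chr16:90220696-90220724, plus strand): gccaaggtggGCGTGGTCAgactcaggcc
The first 4 of these genes rose (Gsta3 by 0.72, Gstm5 by 0.42, Gstm7 by 3.19 and Mgst1 by 0.68), Gclm fell by 0.66 on the log2 scale, and Nfe2l2, Prdx1, Txnrd1 and Sod1 were not called. The element was thus present in members that rose, in 1 that fell and in some that were not called.

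The SOX core was found in the windows of 4 members (9.09%), against 12.2% of all genes with a window, and these are shown because SOX17 is the factor that was deleted.
Gstm7 (chr3:107931833-107931858, minus strand): ccaccaccatAACAATggagctcagg
Gsta2 (chr9:78347157-78347182, minus strand): ctgggtaagaATTGTTgccttactaa
Gpx1 (chr9:108338831-108338856, plus strand): gatttaattaAACAATaagtgtaatt
Gpx8 (chr13:113046538-113046563, minus strand): cagccacgttAACAATtttttttttt
Gstm7 rose by 3.19, Gsta2 and Gpx1 fell by 1.90 and 0.35 on the log2 scale, and Gpx8 was not called. The AP-1 site was found in those of Gstm5, Gstp1, Gstp2, Mgst2 and Prdx1 (11.4%, against 5.95% of all genes with a window), of which Gstm5 rose and the others were not called, and 1 of the matches in Prdx1 overlaps its antioxidant response element core. A match describes the letters in the window and does not show that a factor binds there.

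The members were set beside 114 further genes of glutathione and redox biology in 6 lists, of which 106 were tested. Of these, 16 (15.1%, background 8.84%) rose and 12 (11.3%, background 10.1%) fell, and their median difference was 0.00. These backgrounds hold for each list. In the list of glutathione supply and turnover 3 of 22 (13.6%) rose and 5 (22.7%) fell. Slc7a11, the subunit of the cystine antiporter that brings in the cysteine for glutathione, gave 3.13, 2.91 and 3.07 on the Sox17 f/f arrays, none of them well above background, and 8.39, 7.71 and 8.78 on the Sox17 ed/ed arrays. It was at least 25.5-fold higher in Sox17 ed/ed uteri, and 5.52-fold higher under the normexp correction (limma adjusted p = 2.14e-06). The limma adjusted p of 8.57e-05 in the main fit belongs to the measured difference of 5.25 and not to this bound. Slc7a11 was kept for testing only through the Sox17 ed/ed arrays. Its partner subunit Slc3a2 differed by 0.12 (adjusted p = 0.239) and was not called.

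Cbs, which starts the route from homocysteine to cysteine, moved against Slc7a11. Its signal was 13.90, 13.68 and 13.21 on the Sox17 f/f arrays and 10.79, 10.54 and 10.82 on the Sox17 ed/ed arrays, a difference of -2.88 (standard error 0.19, limma adjusted p = 0.000228). The surface enzymes that break down glutathione also moved apart. Ggt6 fell from 10.85, 11.27 and 10.43 to 7.11, 6.15 and 6.21, by 4.37 on the log2 scale (standard error 0.32, limma adjusted p = 0.000374), with a difference of -3.74 under the normexp correction and -3.48 as the mean of its probes. Ggt1 rose from 3.65, 2.83 and 3.32, of which 1 array was well above background, to 5.54, 5.44 and 5.80 (difference 2.33, standard error 0.22, limma adjusted p = 0.00101). The size of the Ggt1 rise is uncertain, since its level in Sox17 f/f uteri lay near background, and under the normexp correction it was 0.60, or 1.52-fold. The other genes of this list that changed were Abcc3, Chac2, Slc1a5 and Abcc1. Abcc3, an exporter of conjugates, rose by 1.15. Chac2, which degrades glutathione in the cytosol, the glutamine carrier Slc1a5 and the exporter Abcc1 fell by 0.55, 0.47 and 0.46 on the log2 scale. The call of Slc1a5 was lost when Sox17 f/f replicate 1 or 2 or Sox17 ed/ed replicate 2 or 3 was left out. As for Gpx2, the falls of Cbs and Ggt6 lay in the direction of the 7 glandular epithelium markers, whose part in them was not tested. The study lists Cbs among its genes specific to the glandular epithelium.

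**Figure D4:**
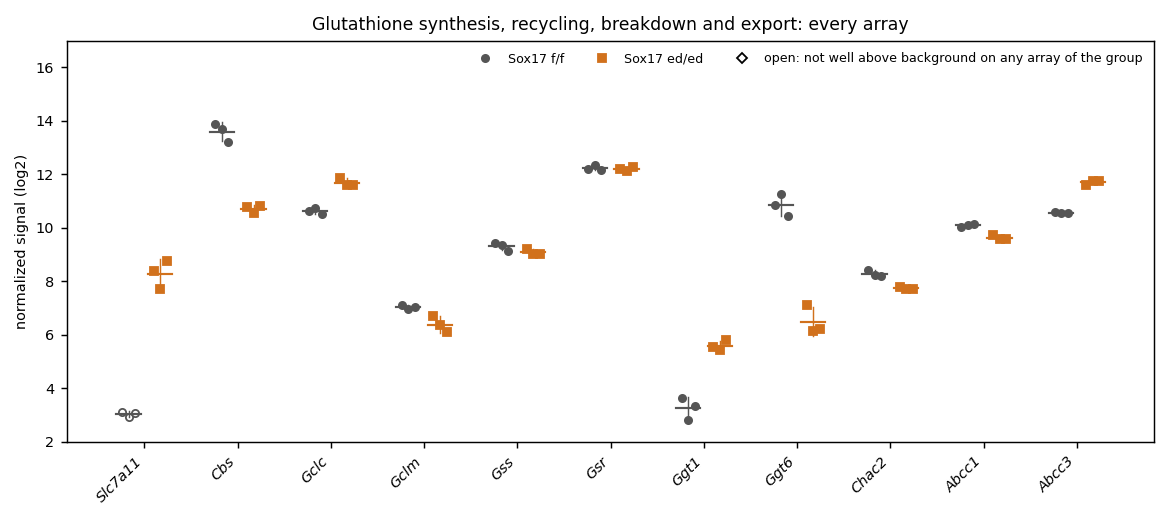
Log2 normalized signal on each of the 3 Sox17 f/f (circles) and 3 Sox17 ed/ed (squares) arrays, with the group mean (horizontal line) and SD (vertical line). The genes are of cysteine supply (Slc7a11, Cbs), glutathione synthesis (Gclc, Gclm, Gss), recycling (Gsr), breakdown (Ggt1, Ggt6, Chac2) and export of conjugates (Abcc1, Abcc3). Slc7a11, with open symbols where no array was well above background, Gclc, Ggt1 and Abcc3 are higher, Cbs, Gclm, Ggt6, Chac2 and Abcc1 lower in Sox17 ed/ed uteri, and Gss and Gsr overlap.

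Of 23 further classical NFE2L2 targets 5 (21.7%) rose and 0 fell at an adjusted p under 0.05. Aldh1a1, which makes retinoic acid and oxidizes aldehydes, rose by 3.97 (standard error 0.13, limma adjusted p = 1.92e-05), Akr1c13, an aldo-keto reductase, by 1.46, Ephx1, the microsomal epoxide hydrolase, by 1.07 and Osgin1 by 0.74. The other was the quinone reductase Nqo2, at 0.40, whose call was lost without Sox17 f/f replicate 1 or 2. The other 18 were not called, and the median of the list was 0.07. Among 14 regulators of NFE2L2 and its dimer partners 1 (7.14%) rose and 3 (21.4%) fell. Nfe2l3, a relative of Nfe2l2, rose by 1.56 (standard error 0.11, limma adjusted p = 0.000314). Under the normexp correction its rise was 0.73. In contrast, Maff, a small Maf protein that pairs with these factors, fell by 1.68 on the log2 scale (standard error 0.12, limma adjusted p = 0.000335). The other falls, of Nfe2l1 and Bach2, were of 0.40 and 0.48 and were lost in 5 and 6 of the 6 fits that left out an array.

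In the list of thioredoxins, glutaredoxins and methionine sulfoxide repair 4 of 21 (19%) rose and 2 (9.52%) fell. The largest were Txnip, which binds and inhibits thioredoxin, at 0.61 (limma adjusted p = 0.0268) and the mitochondrial methionine sulfoxide reductase Msrb2 at 0.60 (limma adjusted p = 0.0108). Sesn1 and Glrx rose by 0.45 and 0.37, and Glrx5 and Msrb3 fell by 0.38 and 0.35, and each of these calls was lost in 3 to 5 of the 6 fits that left out an array. The Txnip call held without Sox17 ed/ed replicate 3 and was lost without any other array. Txn1, the cytosolic thioredoxin, differed by 0.16 (adjusted p = 0.109) and Srxn1, which repairs peroxiredoxins, by -0.23 (adjusted p = 0.221), and neither was called. Of 11 producers of reactive oxygen species tested 2 (18.2%) rose and 2 (18.2%) fell. The activator and the organizer of an epithelial NADPH oxidase moved apart: Noxa1 fell by 1.07 on the log2 scale (limma adjusted p = 0.00518), and Noxo1 rose by 0.71 (limma adjusted p = 0.014), a call lost without Sox17 f/f replicate 1. The oxidase Nox1 itself was dim, with a mean signal of 4.55 in Sox17 f/f uteri. Its difference of 0.04 was not called (limma adjusted p = 0.935). Xdh, the xanthine oxidoreductase, fell by 0.62, and Cybb, the phagocyte oxidase subunit, rose by 0.34, a call lost without Sox17 f/f replicate 1 or 2 or Sox17 ed/ed replicate 1 or 3. Of 15 genes of copper and selenium supply and selenoproteins, only Dio2 (6.67%), a deiodinase that activates thyroid hormone, was called, with a rise of 0.93 (limma adjusted p = 0.0125).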

How the data were processed

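RNA of whole uteri at GD 3.5, 3 of each genotype, was measured on Agilent G3 Mouse GE 1-colour arrays. For every array the deposited file is scanner output. The file headers name Feature Extraction 11.0.1.1, and the submitters' processing notes name 9.1. The deposited intensity used is the processed signal, already corrected for background and spatial trends within an array and not normalized between arrays. The deposited table of processed values lay within 0.191% of the mean of that signal and was used as an alternative. Subtracting background makes log values of dim probes uncertain.

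Here, spots marked by the software as outliers (169 to 302 per array) and control spots were left out, the deposited intensity was taken to log2, quantile normalized as the study's methods state, and averaged over the spots of a probe. A probe was kept if 3 or more of the 6 arrays had it well above background. Of 55681 probes, 26582 were named through RefSeq accessions. Where a gene had several probes, the brightest on average represented it. The array design is on an older build than the GRCm38.p6 gene table, which was used for names, neighbours and promoter sequence. A group with no array well above background was given as a bound, in which the dim probe's own signal, or on each array the lowest one well above background if that was more, was set against the mean of the brighter group.

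The test of the genotypes was limma 3.58.1 under R 4.3.3, through lmFit and eBayes, and p-values of the 14847 genes were adjusted together by Benjamini-Hochberg. Tallies and plots were made with Python 3.11.15, pandas 2.3.3, numpy 2.4.6 and matplotlib 3.10.9. Intervals are 95% intervals. The scripts were tested on simulated data. The number of arrays limits the precision. Each array is a separate sample in the labels, and p-values measure the spread between these samples.

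The members, the lists of further genes and the marker lists were chosen with earlier results of these data known. Every member is named. Values on each array are given for members with an adjusted p under 0.05 and a fold of at least 1.4, for Nfe2l2 and for members whose probes differ in their call; those of Nqo1 and Gstm2 were added after they were seen. From each further list up to 4 of the largest changes past those thresholds were named, and Keap1, Slc7a11, Txn1, Srxn1 and Bach1 always. Other genes of these lists were named after their values were seen. Marker lists for 17 cell types or states were tabulated. The closing section gives the alternatives.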

Additional observations from a re-analysis of the deposited data

How the results depend on the processing

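Of the 19 members called, 12 were called in every alternative (Gclc, Gpx2, Gpx3, Gsta2, Gsta3, Gstm6, Gstm7, Gsto1, Gstp3, Gstt3, Mgst1 and Prdx6), except that Gstp3 was not tested with the filter that needs all 6 arrays, and the other 7 lost their call in at least 1. Apart from leaving out arrays, these calls were lost by Cat, Gclm, Gpx1, Gstt2, Hmox1 and Prdx3 with no filter on dim probes, by Cat and Hmox1 with averages over probes and by Prdx3 with normexp. No called member changed its sign. Tried in place of the settings used were scaling by the 75th percentile, normexp correction of the median signal with an offset of 50 (chosen after seeing the data, as the planned correction on the mean signal could not be run), no filter on dim probes, a filter that needs all 6 arrays well above background, averages over the probes of a gene, the deposited processed values, an eBayes intensity trend, the methods' thresholds, the replicate number as a block, and each array left out in turn. A block for the slide line could not be run, since each line holds 1 genotype.

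The number of members called lower, 7, was 3 with no filter on dim probes, where more genes entered the adjustment, and 3 to 4 with an array left out. That of members called higher, 12, was 9 to 13 with an array left out. The further genes called lower, 12, were 6 at the methods' thresholds and 7 to 14 with an array left out, and those called higher, 16, were 10 to 15. With the eBayes trend 18 of the further genes were called lower and 18 higher. The samples share only a replicate number: deviations of same-numbered arrays from their group means had correlations of 0.06, -0.11 and 0.00 over 14762 genes. With the replicate block, 4 members and 7 of the further genes were called lower, and 10 and 13 higher. Cat, Gpx1, Gstt2, Hmox1 and Prdx3, and Abcc1 of the further genes, were among the calls lost there.

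Differences of 9 members that were not called changed sign. With 75th percentile scaling they were -0.05 for Gpx8, 0.00 for Prdx4 and -0.08 for Sod2, with normexp 0.00 for Gstp1 and -0.04 for Sod2, and with the deposited values -0.02 for Sod2. With an array left out they ranged from -0.01 to 0.08 for Gpx8, -0.08 to 0.01 for Gsr, -0.31 to 0.19 for Gsto2, -0.18 to 0.13 for Mgst2, -0.41 to 0.71 for Nqo1, -0.03 to 0.02 for Prdx2, -0.01 to 0.11 for Prdx4 and -0.06 to 0.05 for Sod2.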
